A study of Mus musculus with 16 samples.

Results

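The 10 genes described are genes of glutathione, peroxide and superoxide detoxification, measured in single cells of the mouse neocortex: the glutathione transferases Gstp1, Gstm1, Gstm5 and Gsta4, the glutathione peroxidases Gpx1 and Gpx4, the peroxiredoxins Prdx1 and Prdx6, the superoxide dismutase Sod1 and catalase (Cat). They were chosen by symbol from the 30389 genes of the count tables, and all 10 were found. The study asked how gene expression in the cortex of THY-Tau22 mice differs from that of wild-type (WT) mice at a late stage of tau pathology, and whether the difference depends on sex. THY-Tau22 mice carry 1 transgene, human 4-repeat tau with the changes G272V and P301S, driven by the Thy1.2 promoter, which is active in neurons, while most of the cells captured here were glial and vascular. Male and female heterozygous THY-Tau22 mice and their WT littermates, on a C57Bl6/J background, were aged to 17 months, and the dissociated neocortex was profiled by Drop-seq, a droplet method that reads the 3′ ends of polyadenylated RNA each read carrying a tag for its cell and one for its molecule, the unique molecular identifier (UMI).

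There were 16 tables of 3000 barcodes each, and 28530 barcodes with 200 to 7000 detected genes were kept. The third WT male table and the table labelled THY-Tau22 male replicate 4 had 2952 barcodes in common, against 3 to 12 in the other pairs of the 120 compared. They are 1 library under both genotypes, and both were left out. The remaining 14 libraries held 24578 cells, with 3 WT and 3 THY-Tau22 libraries from males and 3 WT and 5 THY-Tau22 libraries from females. Each of the 14 held 755945 to 2089367 UMIs, with medians of 429 to 737 UMIs per cell. Xist and the Y-linked genes matched the labelled sex in each of the 14 libraries. The titles of 2 libraries, the first WT male and the first THY-Tau22 female, carry the same number, 574, and what it marks is not stated. These 2 tables had 5 barcodes in common, with Xist at 0.00 and 729 CPM and the Y-linked genes at 279 and 0.00 CPM. Levels are in CPM, the UMIs of a gene summed over the cells of a library, or of a cell class in a library, and scaled to a common total.

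Cells were clustered without the 10 genes and named from marker genes. Of the 14 libraries' cells, 6848 were microglia-like, 4535 astrocyte-like, 4359 oligodendrocyte-like, 3342 endothelial-like, 1224 neuron-like and 1110 OPC-like (oligodendrocyte precursors). The median summed marker CPM of each of these classes was highest for its own list, but every class held markers of the others. The oligodendrocyte markers, which were the most abundant, had a median sum of 1022 CPM in microglia-like and 4256 CPM in neuron-like cells, against 120716 CPM in oligodendrocyte-like cells. In OPC-like cells they came to 5712 CPM, close to the 6000.3 CPM of the OPC markers. In THY-Tau22 male replicate 3, 29.5% of the cells stayed unnamed, against 3.78% to 7.23% in the other 13 libraries.

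Reactive oxygen species arise in mitochondria and at oxidases, and cells remove them in steps. Superoxide dismutases turn superoxide into hydrogen peroxide, and catalase, glutathione peroxidases and peroxiredoxins reduce the peroxide, the last 2 families also acting on lipid peroxides. Glutathione transferases couple glutathione to electrophiles, among them the aldehydes left by lipid peroxidation. Many of these genes are targets of the transcription factor NRF2, which binds antioxidant response elements. In the brain, astrocytes are known for a high glutathione content, and they supply its precursors to neurons.

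Promoter windows from RefSeq (GRCm38.p6, 250 bases before to 50 after each start) were given for 8 of the 10 genes, without Gsta4 and Prdx6. They were searched on both strands for the core of the antioxidant response element, TGACNNNGC, and a variant, TGAGNNNGC. At least 1 match lay in the windows of Gstp1, Gstm5, Prdx1 and Sod1, 4 of 8, and none in those of Gstm1, Gpx1, Gpx4 and Cat. Over the whole table, 30.8% of 27025 genes had a window with a match. The 250 bases before the start are shown for Gstp1 (chr19:4037913-4038162, minus strand) and Prdx1 (chr4:116685349-116685598, plus strand), the 2 genes with the clearest differences below. Capitals mark the matches; in Prdx1 the match is on the opposite strand, and a second match in its window lies after the start and is not shown.
Gstp1: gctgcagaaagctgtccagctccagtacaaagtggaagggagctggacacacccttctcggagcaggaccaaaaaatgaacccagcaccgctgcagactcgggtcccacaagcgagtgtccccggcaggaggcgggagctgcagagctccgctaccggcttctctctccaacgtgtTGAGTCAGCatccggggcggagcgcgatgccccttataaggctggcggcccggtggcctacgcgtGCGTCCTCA
Prdx1: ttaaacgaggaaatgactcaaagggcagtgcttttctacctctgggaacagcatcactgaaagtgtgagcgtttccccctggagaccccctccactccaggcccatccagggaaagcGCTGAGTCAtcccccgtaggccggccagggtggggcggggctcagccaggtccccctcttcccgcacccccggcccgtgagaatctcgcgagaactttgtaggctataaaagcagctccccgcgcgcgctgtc
The Gstp1 match TGAGTCAGC lies 74 to 66 bases before the start, with another, TGAGGACGC on the opposite strand, ending at the base before it. The Prdx1 match TGACTCAGC lies 133 to 125 bases before the start. A match is a string of letters and was not tested for binding.

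Some of the 10 rows cannot be read as 1 gene. Reads here were 60 bases long, so the last 500 bases of each transcript were cut into windows of 60 bases and looked up in all other GENCODE M21 transcripts (GRCm38, the mm10 build that the labels name). Of the windows of Gstp1 (chr19:4035407-4037985), 72.3% were identical to windows of Gstp2 and the processed pseudogene Gstp-ps (chr1:192073820-192074450). For Gpx4 (chr10:80047166-80056439) it was 86.4%, shared with Gpx4-ps2 and AC122253.3, and for Sod1 (chr16:90220754-90226329) 22.2%, shared with Gm8566. The other 7 genes shared none. The tables gave 2505 UMIs to Gstp1 and 3072 to Gstp-ps, so Gstp1 took 44.9% of the pair (95% exact binomial interval 43.6% to 46.2%, which covers counting error only). The share was 45.03% in oligodendrocyte-like cells (43.5% to 46.6%), 41.5% in microglia-like cells (35.6% to 47.7%) and 49.5% in astrocyte-like cells (43.8% to 55.2%), so these intervals overlapped and both rows kept close to 1 ratio. Reads of the 3 genes cannot be told apart over these windows, so Gstp1 is uncertain. The Gpx4 row held only 290 UMIs in all cells, while the row RP23-269H21.1, whose pattern was most like it, held 1265. Gpx4 took 18.6% of that pair, from 8.22% in WT female replicate 1 to 30.0% in THY-Tau22 female replicate 2. The relation of these rows rests on the counts only, so the level of Gpx4 is uncertain too.

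The levels of the 10 genes by cell class are given as a description with no test, since these levels were known when the genes were chosen. Astrocyte-like cells had the highest mean of 5 genes, among them Prdx6, Gstm5 and Gstm1, which were at least 5.02 times as high there as in the next class. Prdx6, a peroxiredoxin that reduces phospholipid hydroperoxides, was at 1019 ± 360 CPM in astrocyte-like cells (mean ± SD, n = 14 libraries) against 114 ± 52.2 CPM in OPC-like cells, a ratio of 8.97. Gstm5, a mu-class transferase, was at 757 ± 262 CPM against 151 ± 49.4 CPM in oligodendrocyte-like cells, a ratio of 5.02. Gstm1, the mu-class enzyme of the same cluster on chromosome 3 (chr3:108012255-108017973; Gstm5 is at chr3:107895821-107898686), was at 661 ± 327 CPM against 129 ± 63.6 CPM in oligodendrocyte-like cells, a ratio of 5.11. Each of these 3 genes was higher in astrocyte-like cells than in the next of the 6 classes in 14 of 14 libraries. Smaller classes came closer. Ependymal-like cells, in 4 libraries, had 476 ± 197 CPM of Gstm1 from 48 UMIs and 456 ± 256 CPM of Prdx6 from 54 UMIs. Fibroblast-like cells, in 8 libraries, had 395 ± 251 CPM of Gstm5 from 92 UMIs. At least 1 UMI of Prdx6 was seen in 40.7% of astrocyte-like cells, of Gstm5 in 32.6% and of Gstm1 in 28.2%, against 2.34%, 1.34% and 1.21% of microglia-like cells. Barcodes with fewer than 200 genes, taken here as a stand-in for free RNA, had a UMI of these genes in 4.67%, 3.77% and 3.56%. The microglia-like shares were not above these values. What these barcodes hold was not tested. The median depth was 551 UMIs in astrocyte-like cells, 503 in microglia-like cells and 209 in these barcodes.

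Gstp1, the pi-class transferase, was high in 1 class. It was at 558 ± 387 CPM in oligodendrocyte-like cells, 9.85 times the 56.7 ± 45.7 CPM of OPC-like cells, and higher in 14 of 14 libraries. Gstp-ps followed it, at 682 ± 475 CPM in oligodendrocyte-like cells. A UMI of Gstp1 was seen in 27.1% of oligodendrocyte-like cells and in 1.61% to 3.22% of the cells of the other 5 classes, beside 1.81% of the barcodes with fewer than 200 genes. OPC-like, neuron-like, astrocyte-like and endothelial-like cells, at 50.3 to 56.7 CPM, did not differ in Gstp1 beyond the spread between libraries.

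Gpx1, the cytosolic glutathione peroxidase, was shared by microglia-like cells, at 299 ± 137 CPM, and endothelial-like cells, at 269 ± 129 CPM. Microglia-like cells were higher in 11 of 14 libraries, a difference within 1 SD. The next class, OPC-like cells, was at 42.7 ± 33.1 CPM of Gpx1. Of the smaller classes, Gpx1 was at 457 ± 242 CPM in macrophage-like, 318 ± 85.9 CPM in fibroblast-like and 307 ± 137 CPM in mural-like cells. Gpx1 was high in immune and vascular classes, and at 26.2 ± 19.4 CPM it was low in astrocyte-like cells, where Gstm1, Gstm5 and Prdx6 were high.

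Gsta4, the alpha-class transferase known for the lipid aldehyde 4-hydroxynonenal, was highest in endothelial-like cells, at 161 ± 50.1 CPM against 61.8 ± 24.1 CPM in astrocyte-like cells, and higher in 14 of 14 libraries. Fibroblast-like and ependymal-like cells had means of 162 ± 209 and 186 ± 154 CPM of Gsta4 from 28 and 24 UMIs. Gsta4 was close to absent in microglia-like cells, at 2.43 ± 3.58 CPM from 10 UMIs, and in oligodendrocyte-like cells, at 2.72 ± 2.58 CPM from 8 UMIs.

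Prdx1, a 2-cysteine peroxiredoxin, had its highest means in 2 classes that did not differ: 431 ± 215 CPM in astrocyte-like and 423 ± 184 CPM in oligodendrocyte-like cells, with astrocyte-like cells higher in 7 of 14 libraries. Endothelial-like cells followed at 189 ± 93.3 CPM of Prdx1 and microglia-like cells stood at 115 ± 50.3 CPM. Sod1, the cytosolic copper and zinc dismutase, was the most even of the 10 over the classes. It ran from 151 ± 92.8 CPM in neuron-like cells to 395 ± 82.8 CPM in endothelial-like and 383 ± 119 CPM in astrocyte-like cells, which did not differ beyond 1 SD. Ependymal-like cells had 830 ± 391 CPM of Sod1 from 118 UMIs. Cat, the peroxisomal catalase, was low in every class, from 9.42 ± 14.1 CPM in neuron-like to 51.5 ± 27.4 CPM in astrocyte-like cells. Gpx4, the peroxidase of membrane lipids, was highest in oligodendrocyte-like cells at 31.0 ± 14.1 CPM, with no neighbours in the order that differed beyond 1 SD.

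**Figure D1:**
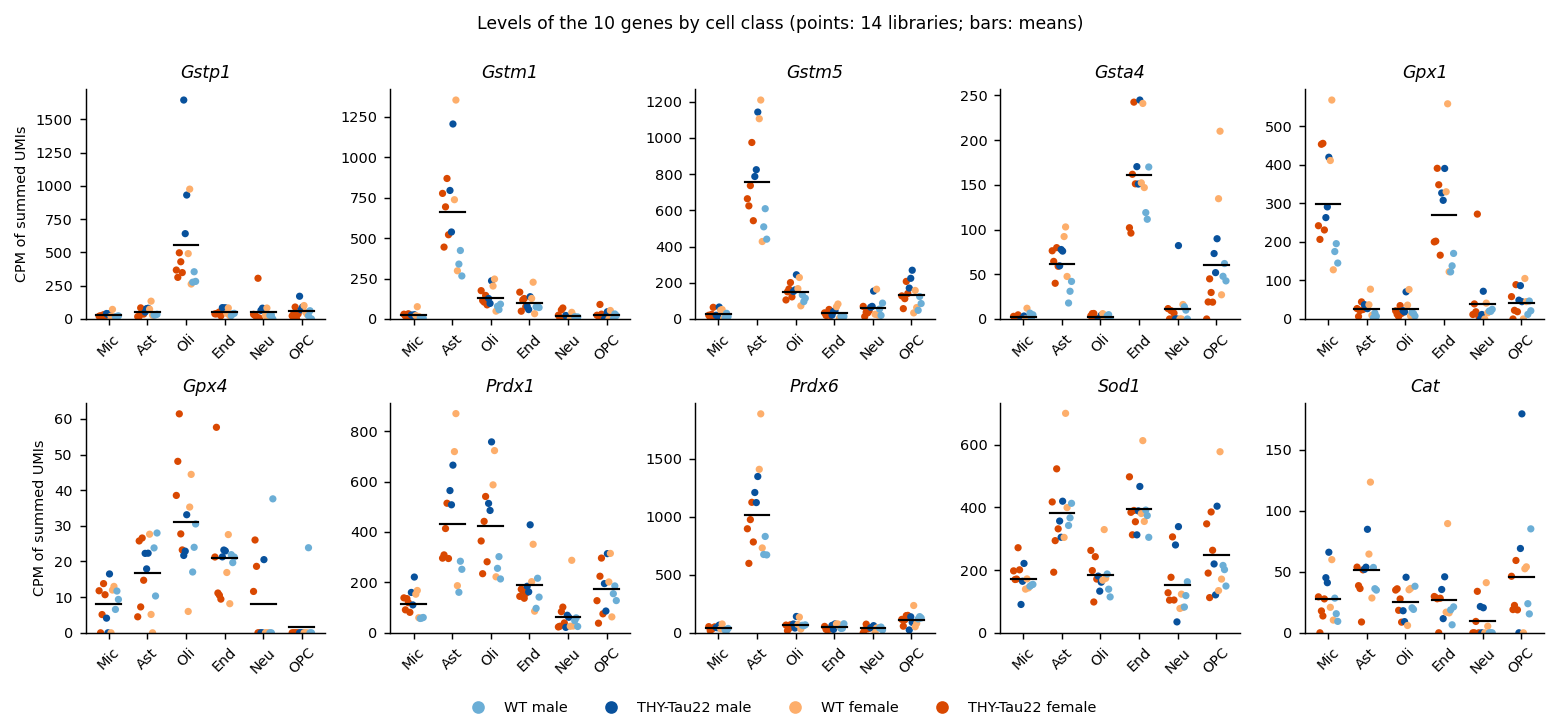
Level of each of the 10 genes (CPM of summed UMIs, linear axis from 0) in microglia-like (Mic), astrocyte-like (Ast), oligodendrocyte-like (Oli), endothelial-like (End), neuron-like (Neu) and OPC-like (OPC) cells. Each point is 1 of 14 libraries, coloured by sex and genotype, and bars are means; Prdx6, Gstm5 and Gstm1 stand out in astrocyte-like cells, Gstp1 in oligodendrocyte-like cells and Gpx1 in microglia-like and endothelial-like cells.

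The genes most like each of the 10 were found by Pearson's r of log2 CPM over 84 sums (6 classes in 14 libraries), among 3602 genes with a mean of at least 50 CPM. These sums share libraries and depth, so r is a description. Prdx6 was most like Htra1 (r = 0.90) and Clu (0.89), and Gstm5 was most like Ndrg2 (0.88) and Htra1 (0.88), genes that are known for astrocytes. Gstm1 was most like the metallothionein Mt1 (0.83) and Elovl5 (0.82). Gstp1 was most like its pseudogene row (0.94) and Apod (0.86). Gpx1 was most like B2m (0.90) and Klf2 (0.89), and Gsta4 was most like Timp3 (0.86) and Id3 (0.85). Prdx1 was most like the histone gene Hist1h2bc (0.82) and Cox6a1 (0.78), the latter a subunit of cytochrome c oxidase. Sod1 was most like the Gm8566 row (0.78) and Id3 (0.71), Gpx4 most like RP23-269H21.1 (0.69) and Car14 (0.61), and Cat most like Tmem59 (0.58) and Selenof (0.57). Within the 10, r was highest between Gstm5 and Prdx6, at 0.80.

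Genotype was compared within each sex, over the 2 sexes together and as the difference between them, in all cells and in the 6 classes, by edgeR's quasi-likelihood test on summed counts with Benjamini-Hochberg adjustment over all genes tested at a level. A call needed an adjusted p under 0.05 together with a log2 fold change of 0.5 or more in either direction. All 10 genes could be tested in all cells, and 32 tests of a gene in a class passed the filter on low counts, 8 genes in astrocyte-like, 7 in microglia-like, 7 in endothelial-like, 6 in oligodendrocyte-like, 3 in OPC-like and 1 in neuron-like cells. In males, Prdx1 in microglia-like cells was higher in THY-Tau22 mice, as 1 of 7 of these genes tested there, beside 0.586% of all 5121 genes (30 genes). Gstp1 in oligodendrocyte-like cells also passed these thresholds in males and for the difference between the sexes, where 0.0995% and 0.423% of 4021 genes did, but that was known when the genes were chosen, and its values are given with no test. In endothelial-like and OPC-like cells of males none of the 10 was called, beside 0.0595% and 0.0792% of all genes. In females none was called at any level, beside 0.0249% in oligodendrocyte-like cells and 0.00% at the other 6 levels. Over both sexes none was called either, beside 0.0195% in microglia-like and 0.0792% in OPC-like cells. In the sums over all cells, fewer cells of a class and less RNA per cell cannot be told apart. The mice came from different litters, and each library is taken as 1 mouse, the 2 that carry the number 574 included.

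Prdx1 in microglia-like cells was at 56.8, 58.6 and 60.8 CPM in the 3 WT males and at 111, 160 and 221 CPM in the 3 THY-Tau22 males. The groups did not overlap, and the 3 WT males lay close together. How many of all genes had male groups that did not overlap was not counted, here or for the genes below. The log2 fold change was 1.38 ± 0.34 (SE; edgeR adjusted p = 0.0456), and DESeq2 gave an adjusted p of 0.0209, with 1.6% of all genes called there. These sums rest on 13 to 26 UMIs in the WT males and 35 to 67 UMIs in the THY-Tau22 males. A UMI of Prdx1 was seen in 6.00% of microglia-like cells and 3.32% of the barcodes with fewer than 200 genes. The median depths were 503 and 209 UMIs. Pooled over libraries, Prdx1 was at 111 CPM in microglia-like cells and 169 CPM in those barcodes, and the part of free RNA was not tested. In females, WT libraries were at 59.9, 153 and 168 CPM and THY-Tau22 libraries had a median of 120 CPM, from 81.2 to 139 CPM, so that the groups overlapped, with a log2 fold change of -0.07 ± 0.29. The difference between the sexes was 1.45 ± 0.45 on the log2 scale (edgeR adjusted p = 0.169). The call rests on several libraries: leaving out 1 library at a time ended it in 9 of 14 cases, WT male replicates 1, 2 and 4, THY-Tau22 male replicates 1 and 3, THY-Tau22 female replicates 2, 3 and 5 and WT female replicate 1, with adjusted p-values of 0.0541 to 0.334, while the log2 fold change stayed between 1.11 and 1.60. In the other classes Prdx1 in males had log2 fold changes of 1.08 ± 0.32 in astrocyte-like (edgeR adjusted p = 0.148), 0.96 ± 0.30 in oligodendrocyte-like (0.112) and 0.62 ± 0.38 in endothelial-like cells (0.435), none of which was called.

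Prdx1 in astrocyte-like cells was at 161, 252 and 284 CPM in WT males and 508, 564 and 665 CPM in THY-Tau22 males. WT females were at 187, 719 and 870 CPM, so that 1 WT female lay with the WT males and the other 2 above every THY-Tau22 mouse of either sex. The low library was WT female replicate 3, whose title carries the label MB22, where the titles of the other 2 carry MB21. THY-Tau22 females had a median of 309 CPM, from 295 to 514 CPM. The log2 fold change in females was -0.58 ± 0.27, and the difference between the sexes was 1.66 ± 0.42 (edgeR adjusted p = 0.126).

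Gstp1 in oligodendrocyte-like cells was at 276, 282 and 355 CPM in WT males and 641, 931 and 1645 CPM in THY-Tau22 males, with no overlap. The log2 fold change was 1.61 ± 0.31, and for Gstp-ps it was 1.75 ± 0.31. WT females were at 263, 491 and 976 CPM of Gstp1 and THY-Tau22 females had a median of 368 CPM, from 313 to 497 CPM, with a log2 fold change of -0.47 ± 0.28. The log2 fold change in males was 2.07 ± 0.42 above that in females. Without THY-Tau22 male replicate 1, the library with the highest level, the log2 fold change in males was 1.14.

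The other genes tested in astrocyte-like cells, except Sod1 with a log2 fold change of -0.32, went the same way in males without a call. Gstm1 was at 266, 339 and 423 CPM in WT males and 538, 794 and 1205 CPM in THY-Tau22 males, a log2 fold change of 1.02 ± 0.33 (edgeR adjusted p = 0.155). Prdx6 was at 672, 676 and 831 CPM in WT males and 1123, 1210.3 and 1348 CPM in THY-Tau22 males, groups that do not overlap, with a log2 fold change of 0.49 ± 0.26 after normalization (edgeR adjusted p = 0.318). Gstm5 had a log2 fold change of 0.55 ± 0.27 (edgeR adjusted p = 0.285) and Gsta4 one of 1.08 ± 0.45 (0.224). In females none of the 8 genes tested in astrocyte-like cells had a log2 fold change above 0, from -0.73 for Gstp1 to -0.16 for Gstm1. None was called, and 2 of 8, Prdx1 and Prdx6, had an unadjusted p under 0.05, beside 3.08% of all genes. Of the 7 without Gstp1, 4 (Prdx1, Gstm1, Gstm5 and Gsta4) had an unadjusted p under 0.05 and were higher in males, beside 9.55% of all 3991 genes, and the median of the 7 was 0.55 beside 0.00 over the other genes.

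Gpx1 in microglia-like cells was at 145, 175 and 195 CPM in WT males and 263, 291 and 419 CPM in THY-Tau22 males, with 0.81 ± 0.35 as log2 fold change (edgeR adjusted p = 0.226). In endothelial-like cells Gpx1 was at 122, 138 and 170 CPM in WT males and 308, 327 and 390 CPM in THY-Tau22 males, a log2 fold change of 1.10 ± 0.37 (0.209). Neither pair of groups overlapped, and neither difference was called. In females Gpx1 in microglia-like cells ranged from 128 to 568 CPM in the 3 WT and from 206 to 455 CPM in the 5 THY-Tau22 libraries. Cat in microglia-like cells had a log2 fold change of 1.25 ± 0.56 in males (edgeR adjusted p = 0.244), at 9.35, 15.6 and 28.4 CPM in WT and 41.1, 45.2 and 66.0 CPM in THY-Tau22 males. The microglia-like cells of all 14 libraries held only 118 UMIs of Cat, so these levels rest on few UMIs.

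Sod1 showed no such separation of the male groups. In all cells it was at 227, 234 and 268 CPM in WT males and 212, 216 and 277 CPM in THY-Tau22 males, and at 230, 245 and 409 CPM in WT females and 210 to 355 CPM, with a median of 247 CPM, in THY-Tau22 females. Both pairs of groups overlapped. The log2 fold change of Sod1 was -0.24 ± 0.24 in males and -0.09 ± 0.21 in females, and in the 4 largest classes it lay between -0.32 and -0.02 in males and between -0.39 and 0.41 in females. Gpx4 had a log2 fold change of -0.44 ± 0.34 in males and 0.50 ± 0.33 in females in all cells, for its row alone. The share of this row in its pair with RP23-269H21.1 was 18.4% to 25.6% in WT males and 10.0% to 17.8% in THY-Tau22 males. In females it was 8.22% to 21.2% in WT and 18.6% to 30.0% in THY-Tau22 libraries. The values of the Gpx4 row therefore do not give the direction of the pair. Gsta4 in endothelial-like cells, its highest class among the 6, was at 112, 119 and 170 CPM in WT and 151, 170 and 245 CPM in THY-Tau22 males, a log2 fold change of 0.33 ± 0.33.

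**Figure D2:**
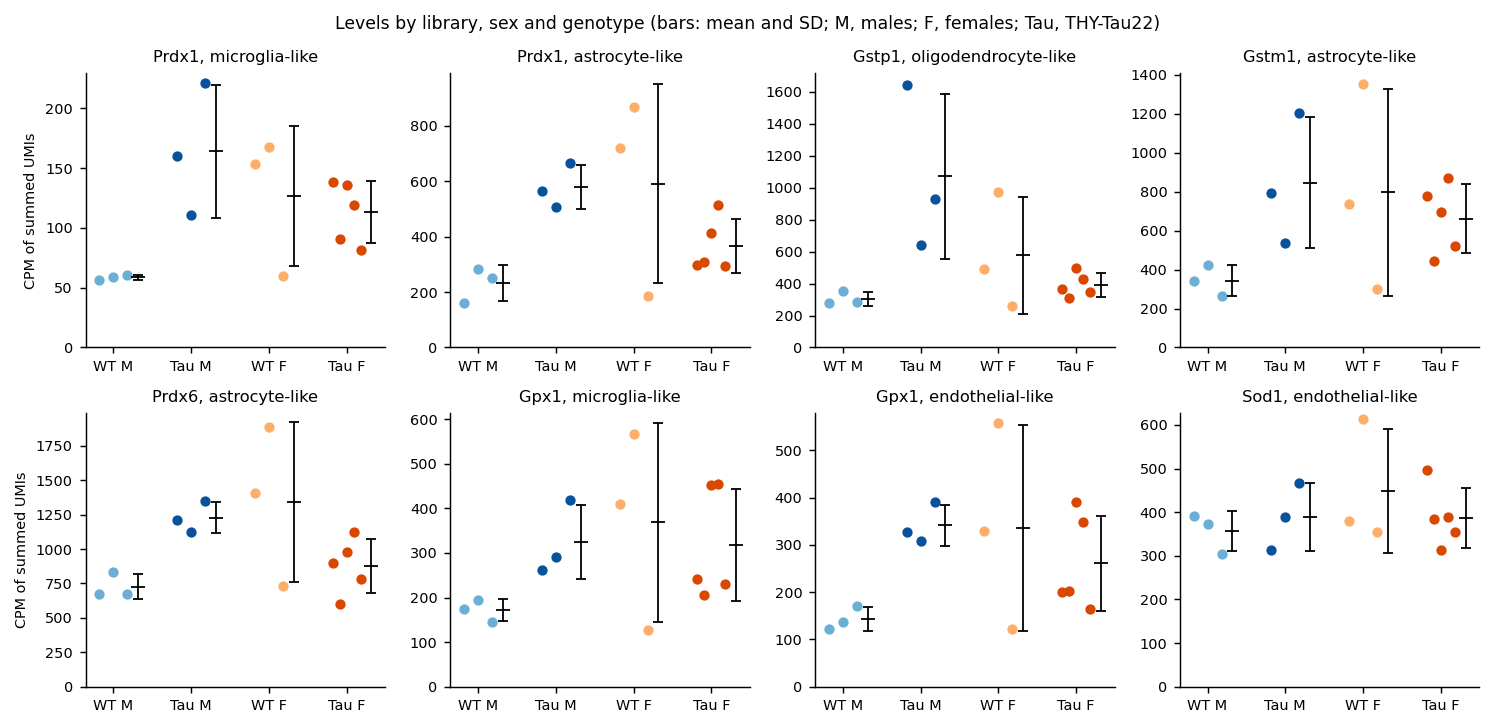
Levels (CPM of summed UMIs, linear axis from 0) by library for Prdx1, Gstp1, Gstm1, Prdx6, Gpx1 and Sod1 in the classes named above each panel, in WT and THY-Tau22 (Tau) males (M) and females (F); bars give mean and SD (n = 3, 3, 3 and 5). Male groups separate in every panel but that of Sod1. The share of all genes whose male groups separate was not counted, and the Gstp1 difference was known when the genes were chosen. In the panels other than that of Sod1, 1 of the 3 WT females lies near the WT males and the other 2 lie higher.

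Counts over the genes in males leave out Gstp1, whose difference was known when the genes were chosen. In all cells, 7 of the other 9 genes had a log2 fold change above 0 in males, with a median of 0.47 beside 0.01 over the genes outside the antioxidant lists, and 1 of the 9 in females, with a median of -0.31 beside -0.01. None of the 10 was called in either sex, nor was any of the 11643 genes (0.00%) by edgeR. At an unadjusted p under 0.05, Prdx1, Gpx1 and Gstm1, 3 of 9, were higher in males, beside 9.04% of all genes, and none in females, beside 0.636%. The same count was 4 of 6 in microglia-like cells (Prdx1, Gpx1, Cat and Prdx6), 1 of 5 in oligodendrocyte-like cells (Prdx1) and 1 of 6 in endothelial-like cells (Gpx1) of males, beside 10.1%, 9.72% and 8.71% of all genes. Pooled over libraries, Prdx6 was at 41.2 CPM in microglia-like cells against 251 CPM in the barcodes with fewer than 200 genes. For Prdx1 these levels were 111 and 169 CPM, for Cat 28.4 and 23.9 CPM and for Gpx1 288 and 105 CPM. The part of free RNA in these counts was not tested. In females Prdx6 alone, 1 of 10, had an unadjusted p under 0.05, with a log2 fold change of -0.51 ± 0.23, beside 1.74% of all genes in either direction. DESeq2 called none of the 9 in all cells of males, beside 15 of all genes (0.129%). Between females and males over both genotypes none of the 10 was called at any level, where 0.0515% of all genes were in all cells, 0.0976% in microglia-like, 0.1% in astrocyte-like, 0.0995% in oligodendrocyte-like, 0.119% in endothelial-like, 0.141% in neuron-like and 0.158% in OPC-like cells, and 1 of the 10, Gstm1, had an unadjusted p under 0.05 in all cells, with a log2 value of 0.50 ± 0.24 higher in females, beside 1.58%.

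**Figure D3:**
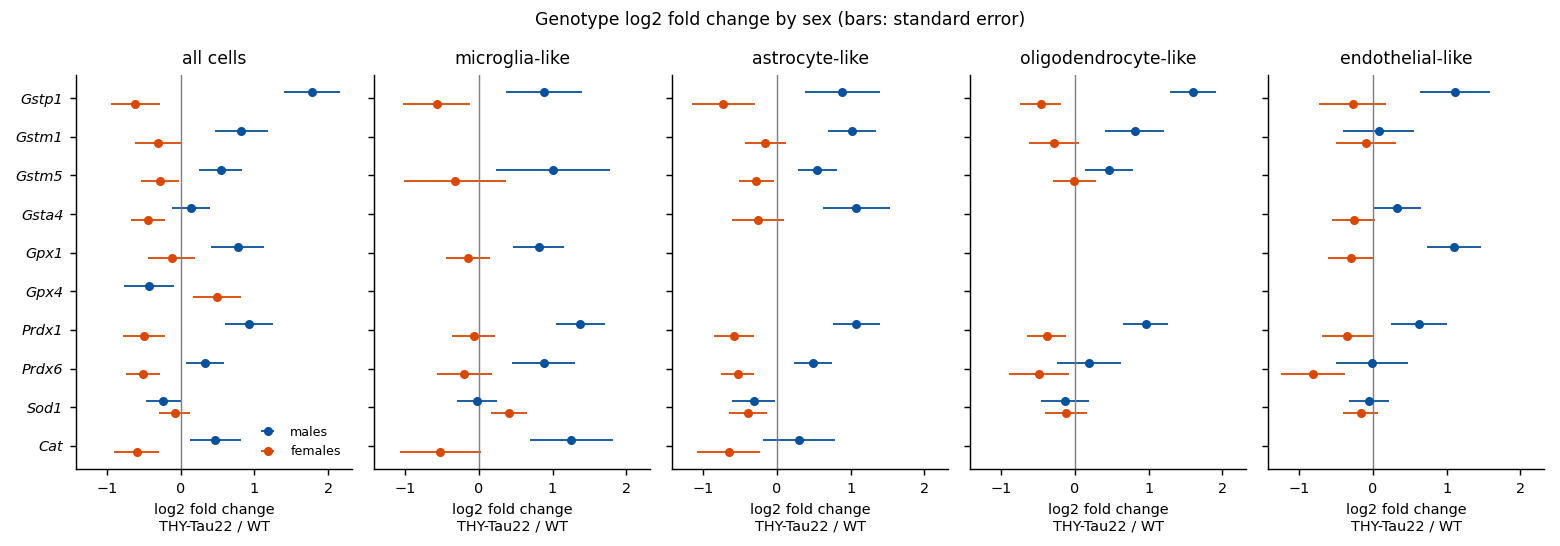
Log2 fold change of THY-Tau22 over WT (horizontal axis; bars are standard errors from edgeR) of the 10 genes in all cells and the 4 largest classes, in males (blue) and females (orange); genes with too few counts at a level have no point. Male values lie mostly right of 0 and female values mostly left, while Sod1 runs from -0.32 to -0.02 in males and from -0.39 to 0.41 in females in the 4 classes.

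The levels moved with other features of the libraries. Ribosomal protein mRNA made up 1.00% to 1.23% of all UMIs in the 3 WT males and 1.67% to 2.10% in the 3 THY-Tau22 males (exact permutation test, two-sided p = 0.10, the smallest that 3 against 3 allows), and mitochondrially encoded mRNA 0.476% to 0.724% and 1.08% to 1.55% (p = 0.10, exact permutation test). In females the ribosomal share was 0.935% to 2.50% in WT and 1.08% to 2.00% in THY-Tau22 mice (exact permutation test, p = 0.536). The lowest and the highest of the 14 libraries were both WT females, replicates 3 and 2. The sum of the 10 genes ranked with this share: it was 937 CPM in WT female replicate 3, 983 to 1161 CPM in WT males, 1446 to 2194 CPM in THY-Tau22 males and 2939 CPM in WT female replicate 2. Over the 14 libraries the sum and the share correlated with Pearson's r = 0.959 and Spearman's rho = 0.965. These values are given as a description with no test, since the sum includes Gstp1. Without the 2 libraries farthest from the median, WT female replicate 2 and THY-Tau22 male replicate 3, r was 0.951, and in the 12 libraries labelled MB21 it was 0.956. The MB22 label holds only THY-Tau22 female replicate 5 and WT female replicate 3, too few for a value.

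The genes differed in this relation. Pearson's r with the ribosomal share was 0.935 for Prdx1 (permutation p = 2e-05, adjusted 0.00011). That p is the smallest that 100000 permutations can give, and the adjustment is over the 11 relations computed, the sum included. The permutations took no account of group. For the others r was 0.904 for Gpx1, 0.897 for Gstm5, 0.874 for Gstm1, 0.833 for Prdx6, 0.801 for Gsta4 and 0.691 for Gstp1. Each of these 7 genes kept an r of at least 0.652 without the 2 libraries. Cat, at 0.669, was at -0.00705 without them, so its relation rests on them. Sod1 was at 0.529 (permutation p = 0.0662, adjusted 0.0728), falling to 0.141 without them, and Gpx4 at -0.138 (permutation p = 0.6525). The Gpx4 value is for its row alone, which held 18.6% of the UMIs of its pair with RP23-269H21.1. The relation of RP23-269H21.1 to the share was not tested. Over 9814 genes with a mean of at least 10 CPM the median r was 0.295, and 0.56% of them were at or above the r of the sum. That share sets a sum of 10 genes beside single genes with means down to 10 CPM, so like is not compared with like. For the genes alone this share was 1.75% for Prdx1, 3.95% for Gpx1, 4.58% for Gstm5, 6.39% for Gstm1, 9.68% for Prdx6, 12.4% for Gsta4, 21.2% for Gstp1, 23.01% for Cat, 33.8% for Sod1 and 72.2% for Gpx4. Within classes, with the ribosomal share of the same class, the sum of the 10 genes had r = 0.914 in microglia-like, 0.982 in astrocyte-like, 0.938 in oligodendrocyte-like and 0.953 in endothelial-like cells, given as a description. The median r of single genes with a mean of at least 50 CPM was 0.079, 0.261, 0.174 and 0.116 in the same order. A fit with the ribosomal share as a covariate was added after the data were seen. There Prdx1 in microglia-like cells of males had a log2 fold change of 0.62 (edgeR adjusted p = 0.9998), Gpx1 one of -0.32, Gstm1 in astrocyte-like cells one of 0.25 and Gstp1 in oligodendrocyte-like cells one of 0.97, and none of the 10 was called. The male groups do not overlap in this share, so the share and the genotype of males cannot be told apart.

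**Figure D4:**
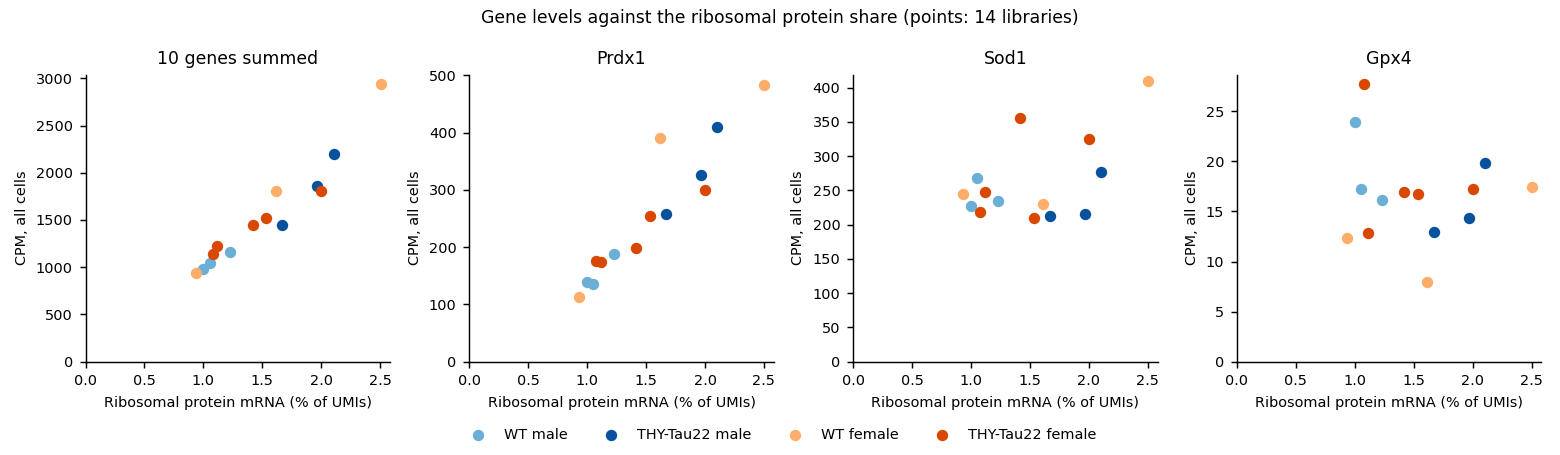
Level in all cells (CPM, linear axes from 0) of the 10 genes summed, Prdx1, Sod1 and Gpx4 against the ribosomal protein share of all UMIs (%) in 14 libraries, coloured by sex and genotype. Over the 14 libraries the summed level and Prdx1 follow the share (r = 0.959 and 0.935), while Sod1 and Gpx4 do so less (r = 0.529 and -0.138). The Gpx4 row holds 18.6% of the UMIs of its pair with RP23-269H21.1.

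Erythrocyte markers, which perfusion should remove, were at 0.479 to 343 CPM in 13 libraries and at 2483 CPM in THY-Tau22 female replicate 4. In the 3 THY-Tau22 males they were at 2.86, 28.3 and 199 CPM and in the 3 WT males at 0.479, 0.896 and 39.9 CPM, so the male groups overlapped. Their part in the levels of Gpx1 and Cat, which red cells also contain, was not tested.

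The rest of the antioxidant genes was described from a list of 94 in 8 groups, 86 of them in the tables. Of the 68 tested in all cells, none was called in either sex. Without Gstp-ps, whose difference was known beforehand, 14 of 67 were higher in males at an unadjusted p under 0.05, beside 9.04% of all genes, and none in females. In the classes, Gstp-ps in oligodendrocyte-like cells was the only row of the list past the call thresholds. In males the 3 other genes of superoxide removal, Sod2, Sod3 and the copper chaperone Ccs, had a median log2 fold change of 0.82 in all cells and 8 other peroxiredoxins and repair genes one of 0.61. It was 0.52 over 9 other glutathione transferases, 0.45 over 13 thioredoxin and glutaredoxin genes, 0.40 over 2 other glutathione peroxidases and 0.33 over 16 genes of glutathione synthesis and recycling. The 9 regulators and targets of NRF2 had a median of 0.32 and the 7 other selenoproteins one of 0.18, beside 0.01 over the genes outside the lists. In females the medians in the same order were -0.43, -0.08, -0.12, -0.14, 0.20, -0.16, 0.03 and -0.09, beside -0.01. The 12 genes with the highest levels were Selenop, Hpgds, Nfe2l2, Selenos, Gstp-ps, Selenok, Slc3a2, Txnip, Prdx2, Mafg, Park7 and Selenow. Selenop, the selenium carrier, was at 2004 ± 399 CPM in microglia-like cells, its highest class, and Hpgds, a sigma-class glutathione transferase that makes prostaglandin D2, was at 1504 ± 173 CPM in microglia-like cells. Neither was called, with log2 fold changes in males in microglia-like cells of 0.20 ± 0.24 and -0.23 ± 0.23. Nfe2l2, which encodes NRF2, was at 665 ± 105 CPM in microglia-like cells, and its log2 fold change in males was -0.33 ± 0.25 there and -0.84 ± 0.29 in endothelial-like cells (edgeR adjusted p = 0.21). Prdx2, the close relative of Prdx1, had a log2 fold change of 1.01 ± 0.38 in microglia-like cells of males (edgeR adjusted p = 0.17), and the small selenoprotein Selenow one of 1.47 ± 0.43 in astrocyte-like cells (0.15).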

How the data were processed

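UMI counts per gene and barcode, deposited as count tables by the authors with 3000 barcodes per library, were used as deposited. The submitters' processing notes name the build mm10, and the aligner and counter are not given in the sources used here. The genes and gene lists were chosen with earlier results of these data known. Barcodes with 200 to 7000 genes were clustered with scanpy 1.11.5 and leidenalg 0.10.2 (2500 variable genes without the 10 genes and the antioxidant list, 19 principal components, 20 neighbours, resolution 0.5). A cluster was named when the mean log2 fold of its leading marker list was above 2, with at least 3 of its markers over 2-fold and at least 3 detected in over 2% of the cells. The first limit was raised after the clusters were seen and left unnamed mixed clusters that held 1.84% to 2.35% of the cells per group. Scrublet marked 1603 doublets (5.62%), which were kept except in 1 alternative.

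Counts were summed per library and class (at least 10 cells) and tested with edgeR 4.0.16 (TMM, filterByExpr, glmQLFit and glmQLFTest, 1 mean for each of the 4 groups of sex and genotype, R 4.3.3) with Benjamini-Hochberg adjustment over all genes. The authors tested single cells, and sums per mouse were used here because cells are not replicates. Exact permutation tests and 100000 permutations of correlations were run in scipy 1.17.1. The fit was tested on simulated data. Named are the 10 genes and Gstp-ps, the 2 genes most like each, and of the antioxidant list every called gene and the 12 with the highest level. Alternatives were DESeq2 1.42.0, RLE library sizes, no filter, other uses of the shared library, other cell filters and classes, subsets of libraries, and 2 covariates added after the data were seen. Each library held 755945 to 2089367 UMIs, and intervals cover counting error only.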

Additional observations from a re-analysis of the deposited data

Results flagged for a closer look

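The log2 fold change of Gstp1 between THY-Tau22 and WT mice in oligodendrocyte-like cells was 2.07 higher in males than in females, which flagged it as a difference between the sexes. It was known when the genes were chosen and is given with no test.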

How the results depend on the processing

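No paired analysis was possible because the replicate numbers follow accession order and the groups compared within a sex share fewer than 2 of the numbers in their titles. In males, 2 of the 42 tests of the 10 genes passed the call thresholds, Prdx1 in microglia-like cells and Gstp1 in oligodendrocyte-like cells, the latter known when the genes were chosen and no test result. Without Gstp1 it was 1 of 37 tests, beside 0.117% of all gene tests over the 7 levels. With and without Gstp1 there were 4 and 2 with no filter on low counts (0.326% of all gene tests), 6 and 4 in the MB21 libraries alone (1.58%), 11 and 9 in a fit of males alone (7.07%), and 1 and 0 with doublets removed (0.112%). There were 0 with all 16 tables as labelled, with the shared library as a THY-Tau22 male, with classes from marker UMIs and with either covariate, the ribosomal protein or the mitochondrial mRNA share (0.00% to 0.169%). Leaving out 1 library at a time gave 0 to 6 with Gstp1. It was 0 without THY-Tau22 male replicate 1 or any 1 of the 3 WT males (0.00% to 0.0318%), and 6 and 4 without WT female replicate 3 (1.66%). In females there were 0 calls, and 0 to 1 with 1 library left out, the 1 being Prdx1 in astrocyte-like cells without WT female replicate 3 (0.0686%). For the difference between the sexes, Gstp1 in oligodendrocyte-like cells, known beforehand, was the 1 value past the thresholds, and of the other genes 0 of 37 tests passed, beside 0.0539% of all gene tests. With and without Gstp1 there were 3 and 1 with no filter (0.203%), 14 and 11 in the MB21 libraries alone (6.15%), and 0 with all 16 tables, the shared library as a THY-Tau22 male, classes from marker UMIs or either covariate (0.00%). Leaving out 1 library at a time gave 0 to 17 with Gstp1. There were 0 without THY-Tau22 male replicate 1, WT female replicate 2 or WT male replicates 1 or 4 (0.00% to 0.00288%), 2 and 1 without THY-Tau22 female replicate 4 (0.389%), and 17 and 14 without WT female replicate 3 (9.03%). Over both sexes, and between females and males, there were 0 calls in every alternative run.

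Directions in males were looked at for Prdx1, Gpx1, Gstm1, Gstm5, Prdx6 and Gstp1 in all cells. Those of Prdx1, Gpx1, Gstm1 and Gstp1 were also looked at in some classes, and those of Sod1, Gpx4, Cat and Gsta4 were not. The directions looked at reversed in the fits with a covariate and in no other alternative. With the mitochondrial mRNA share the log2 fold changes were -0.040 for Prdx1 and -0.11 for Gstm1 in astrocyte-like cells, -0.82 for Gpx1 in microglia-like cells and, in all cells, -0.17 for Prdx1, -0.50 for Gpx1, -0.47 for Gstm1, -0.46 for Gstm5 and -0.38 for Prdx6. With the ribosomal protein share they were -0.32 for Gpx1 in microglia-like cells and, in all cells, -0.18 for Gpx1, -0.14 for Gstm1, -0.11 for Gstm5 and -0.20 for Prdx6. The cause was not tested. The level of each gene in its highest class moved by less than 1 SD in each alternative run. Counting limits Gpx4 and Cat most, with 290 and 545 UMIs in all.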
